A study of Mus musculus with 15 samples.

Results

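Zfp genes here are the mouse genes whose symbols start with Zfp and a number, most of them for zinc finger proteins. They were followed through 15 arrays of a dendritic cell line exposed to an allergen, an oxidant and an inhibitor of reactive oxygen species. Members were the genes with such a symbol whose probe set had a mean log2 signal over the 15 arrays of at least 6.22, the 40th percentile of the array's 45037 probe sets, with the brightest probe set standing for each gene. Of the 336 Zfp genes on the array, 256 met the rule and 80 lay below the threshold. They were 256 of 12701 genes tested in all. By the symbol rule they include Zfp652os, Zfp85os and Zfp862-ps, which were not placed as protein-coding genes. The values just inside the threshold were 6.23 for Zfp182, 6.23 for Zfp395, 6.26 for Zfp352 and 6.27 for Zfp169, and those just outside it were 6.21 for Zfp341, 6.18 for Zfp941, 6.17 for Zfp449 and 6.14 for Zfp429. For 35 of the 256 members the mean of at least 1 group lay below the threshold, so these members could be kept through the groups in which they were brighter.

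Most Zfp proteins carry an array of C2H2 zinc fingers, each of which grips a few bases of DNA, and many also carry a KRAB box that recruits the corepressor Trim28, the histone methyltransferase Setdb1 and heterochromatin proteins. The KRAB zinc finger genes are known for silencing retrotransposons and for lying in clusters of related copies. A small branch, Zfp36, Zfp36l1 and Zfp36l2, has CCCH fingers instead. These bind AU-rich elements of messenger RNA and call in the deadenylase that removes its tail, which in myeloid cells limits cytokine messages. Other proteins of the same name family act in ribosome assembly, splicing or ubiquitin transfer, so the symbol is not a pathway.

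All 5 groups came from 1 cell line, established from the skin epidermis of newborn A/J mice and labelled as dendritic cells, and each had 3 arrays. The controls are called non-treated in the sample labels, although the series text speaks of vehicle, and the other groups received dinitrofluorobenzene (DNFB, a contact allergen that binds proteins), hydrogen peroxide (H2O2), diphenyl iodonium (DPI, which blocks flavin enzymes such as NADPH oxidase), or DPI and DNFB together. Doses, exposure times and the order of DPI and DNFB are not given, and whether DPI was given in a solvent of its own is not given either. All 15 fixed dendritic markers were measured. Itgax had a median signal of 2796 and the class II gene H2-Ab1 of 9255, while the Langerhans cell marker Cd207 ranged from 22.3 to 1088 and Flt3 from 7.65 to 152.9. The summed signal of the dendritic markers was 96370 to 130756, against 127.9 to 484.7 for the keratinocyte markers. Whether a group's 3 arrays stand for 3 cultures is not stated, and the p-values therefore reflect array-to-array spread that may be only technical. A lower signal cannot separate fewer cells with a transcript from less of it per cell.

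Promoter sequence was looked at because so many Zfp genes moved together with DPI. The 250 bases before the transcription start are given for 6 genes on which the results turn, from RefSeq's table for GRCm38.p6, 5′ to 3′ on the gene's strand, with matches in capitals. The motifs searched, on both strands, were CCAAT (bound by NF-Y), CCGGAAG (ETS factors), GGGCGG (Sp factors), the NRF1 motif, ACTACAA (part of the Zfp143 site), TATAAA, TGACNNNGC (core of the antioxidant response element) and the CArG box of serum response factor. Zfp36 (minus strand, chr7:28379229-28379478) rose with both stressors, and Zfp189 (plus strand, chr4:49520926-49521175) was highest with H2O2. Zfp770 (minus strand, chr2:114201433-114201682), Zfp282 (plus strand, chr6:47877305-47877554) and Zfp113 (minus strand, chr5:138155745-138155994) were low in cells that received both compounds, and Zfp692 (plus strand, chr11:58306819-58307068) was high there.
Zfp36: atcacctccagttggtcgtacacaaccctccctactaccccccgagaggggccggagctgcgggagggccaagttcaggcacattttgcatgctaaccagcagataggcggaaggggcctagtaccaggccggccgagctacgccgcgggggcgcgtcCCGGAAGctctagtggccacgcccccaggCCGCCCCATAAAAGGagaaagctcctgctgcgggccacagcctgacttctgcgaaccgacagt
Zfp189: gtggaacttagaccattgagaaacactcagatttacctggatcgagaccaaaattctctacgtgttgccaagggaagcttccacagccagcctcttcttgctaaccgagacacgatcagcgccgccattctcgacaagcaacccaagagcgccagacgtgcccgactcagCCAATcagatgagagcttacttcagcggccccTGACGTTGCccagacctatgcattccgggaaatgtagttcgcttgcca
Zfp770: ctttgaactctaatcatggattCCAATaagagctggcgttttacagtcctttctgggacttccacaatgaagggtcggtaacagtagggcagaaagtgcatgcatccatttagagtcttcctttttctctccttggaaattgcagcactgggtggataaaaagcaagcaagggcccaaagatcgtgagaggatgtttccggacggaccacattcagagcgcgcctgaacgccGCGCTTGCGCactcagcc
Zfp282: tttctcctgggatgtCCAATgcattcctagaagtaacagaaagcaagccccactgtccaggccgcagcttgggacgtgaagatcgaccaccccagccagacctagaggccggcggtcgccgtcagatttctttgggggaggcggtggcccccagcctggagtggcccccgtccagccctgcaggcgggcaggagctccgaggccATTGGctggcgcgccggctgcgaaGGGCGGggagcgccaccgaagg
Zfp692: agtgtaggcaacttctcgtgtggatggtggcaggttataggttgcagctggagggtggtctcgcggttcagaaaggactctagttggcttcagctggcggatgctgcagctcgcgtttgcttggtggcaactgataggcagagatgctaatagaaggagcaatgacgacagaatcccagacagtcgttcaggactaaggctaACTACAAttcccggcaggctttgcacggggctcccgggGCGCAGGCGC
Zfp113: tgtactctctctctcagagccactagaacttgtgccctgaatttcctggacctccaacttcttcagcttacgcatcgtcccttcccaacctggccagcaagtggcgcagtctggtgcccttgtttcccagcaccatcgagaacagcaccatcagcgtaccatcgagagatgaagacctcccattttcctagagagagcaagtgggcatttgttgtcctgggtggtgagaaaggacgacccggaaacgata

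The capitals of Zfp36 hold CCGGAAG 92 bases before the start, then GGGCGG on the reverse strand overlapping a CArG box 58 bases before it. Zfp189 has CCAAT 80 bases and TGACNNNGC 48 bases before its start. Zfp770 has CCAAT 228 bases and the NRF1 motif 18 bases before the start, Zfp282 has 2 CCAAT boxes and GGGCGG, Zfp692 has ACTACAA and, at the very end, the NRF1 motif, and the Zfp113 window held none of the 8 motifs. The table gave 261 such windows for 210 of the 256 members. CCAAT was in 43.7% of them, against 33.8% of all 32851 windows, CCGGAAG in 17.2% against 6.91%, GGGCGG in 44.8% against 32.7% and the NRF1 motif in 8.05% against 3.74%. TATAAA was the reverse, with 6.13% against 12.4%. In the 62 windows of 49 members that fell with DPI both without and with DNFB, CCAAT was in 54.8% and the NRF1 motif in 14.5%, above the shares for all members' windows. CCGGAAG was in 14.5% and GGGCGG in 37.1%, below them, and TATAAA in 11.3%, above the members' 6.13%. The median number of CG dinucleotides was 12 in the members' windows and 6 in all windows. The 32851 windows are those of all 27025 genes of the table, whether tested here or not, while the members were chosen by signal. Windows of the other genes tested were not set apart. The differences from all windows are therefore not shown to be particular to Zfp genes. Windows of 1 gene overlap and neighbouring genes are copies of each other, so these shares are descriptions, and a match is not shown to be bound.

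Zfp genes were dim. Their median signal was 290 (on the linear scale, after all arrays were brought to 1 trimmed mean), against 520 for all genes tested. The brightest were Zfp622, which matures the large ribosomal subunit, at 9399, Zfp36l1 at 7683, Zfp36l2 at 6738 and the BTB-domain factor Zfp131 at 4867. These levels rank probe sets, whose binding differs, and not molecules.

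On each array the median log2 signal of the 256 members was set against that of all genes on the same array. This difference was -0.68, -0.63 and -0.54 on the non-treated arrays, -0.63, -0.62 and -0.63 with DNFB and -0.59, -0.67 and -0.45 with H2O2. With DPI it was -1.06, -0.92 and -0.92, and with DPI and DNFB together -1.07, -0.94 and -1.05. All 6 arrays with DPI lay below all 9 arrays without it. The group means were -0.61 ± 0.071 (SD, n = 3) without treatment and -0.97 ± 0.077 with DPI.

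**Figure D1:**
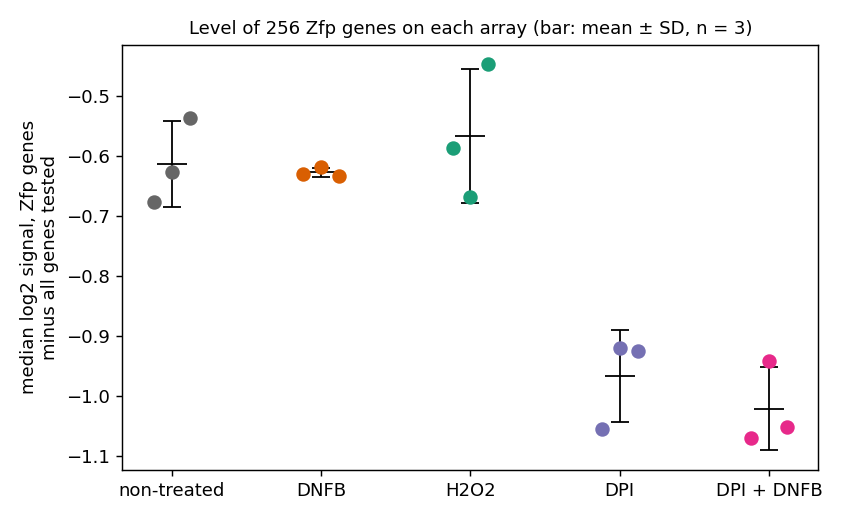
Median log2 signal of the 256 Zfp genes minus that of all genes tested, 1 point an array, by group, with bars for the mean and SD of 3 arrays. The 6 arrays with DPI lie between -1.07 and -0.92 and the other 9 between -0.68 and -0.45.

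DPI alone against no treatment asks what the inhibitor did by itself. A large share of the Zfp genes fell: 85 of 256 were lower and 17 were higher (limma, adjusted p below 0.05), while of all genes tested 18.4% were lower and 13.3% higher. The 85 are 33.2% of the members. Among other genes spread over the deciles of mean signal as the members are, 18.0% were lower. The median log2 difference of the members was -0.41, against -0.01 for all genes, and 195 of 256 lay below 0. The 3 arrays of each group did not overlap, DPI being lower, for 120 members, or 46.9%, against 25.2% of all genes, and DPI was higher without overlap for 27 (10.5%, against 21.0% of all genes). At least 2-fold falls were called for 48 members (18.8%), against 755 of all genes (5.94%).

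Zfp799 fell furthest. Its signal was 421, 456 and 503 without treatment and 28.8, 54.7 and 37.6 with DPI, so that every DPI array was far below every non-treated array. The log2 difference was -3.12 ± 0.32 (SE; limma adjusted p = 4.27e-07), or 8.71-fold lower. Zfp113 had 317, 308 and 375 without treatment and 31.1, 19.9 and 66.1 with DPI, again without overlap, a log2 difference of -2.77 ± 0.43 (SE; limma adjusted p = 5.17e-05). For both genes the DPI signals come near the pseudocount of 15 that was added before the logarithm, so the folds are drawn toward 1. Both DPI group means also lay below the signal threshold, so these members were kept through groups in which they were brighter. A brighter gene, Zfp617, went from 1111, 1263 and 1208 to 229, 419 and 326, a fall of 3.65-fold (log2 -1.87 ± 0.17 (SE; limma adjusted p = 1.25e-07)). Zfp810 went from 539.6, 480.2 and 569 to 133, 134 and 176 (log2 -1.75 ± 0.22, adjusted p = 4.91e-06 by limma), and Zfp839, Zfp719, Zfp950 and Zfp975 fell by between 3.45-fold and 4.68-fold. On the log2 scale, second probe sets gave only -0.24 for Zfp719 and -0.47 for Zfp950, and -1.69 for Zfp975. Zfp213 fell too (log2 -1.80 ± 0.53), but its call ended without non-treated replicate 1 (adjusted p = 0.0505), without non-treated replicate 2 (0.0561) and without DPI replicate 2 (0.0578).

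Several members with known partners in silencing or signalling were among the lower ones. Zfp638, which guides the HUSH silencing complex to retroviral DNA, had 2157, 1978 and 1868 without treatment and 794, 966 and 730.3 with DPI, a log2 difference of -1.26 ± 0.13 (SE; limma adjusted p = 6.96e-07). Zfp217, a subunit of corepressor complexes with CoREST, went from 1222, 1063 and 1330.5 to 824, 675 and 686 (log2 -0.71 ± 0.17), and Zfp592, which works with the chromatin reader Zmynd8, from 443, 322 and 424 to 145, 168 and 253 (log2 -1.04 ± 0.23). In these 3 genes the groups did not overlap. Zfp516, a cofactor of the brown fat programme, fell by 1.67-fold, and the CCCH gene Zfp36l2 by 1.81-fold. Of the 2 dimmer probe sets of Zfp36l2, 1 gave -0.70 and the other 0.31. Zfp809, which silences retroviruses through Trim28, had a log2 difference of -0.57 ± 0.21 (adjusted p = 0.0394) that did not pass without non-treated replicate 2 or 3 or DPI replicate 1 or 3 (log2 between -0.62 and -0.33). The ubiquitin ligase Zfp91 fell by 1.27-fold in this probe set, while the mean of its probe sets gave a log2 difference of 0.09.

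The 17 that rose with DPI were led by Zfp948, with signals of 120.4, 209 and 273 without treatment and 805, 1075 and 994 with DPI. All 3 DPI arrays were above the brightest non-treated array, and the rise was 4.69-fold (log2 2.23 ± 0.25 (SE; limma adjusted p = 1.14e-06)). Zfp677, in the same run of adjacent Zfp genes on chromosome 17, went from 121, 171 and 345 to 599, 676 and 683 (log2 1.67 ± 0.28). Zfp410, the activator of the remodeller gene Chd4, was 1674, 1174 and 1206 and then 2516, 2512 and 2594, a log2 difference of 0.92 ± 0.15. Zfp622, whose groups did not overlap either, rose by 1.74-fold, the nucleolar protein gene Zfp330 by 1.68-fold and Zfp131 by 1.76-fold. Zfp503, a corepressor related to Zfp703, was 258, 347 and 543 without treatment and 1069, 681 and 587 with DPI (log2 1.01 ± 0.29), a call that ended without non-treated replicate 1 (adjusted p = 0.0675) or DPI replicate 1 (0.0780).

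The deposited arrays carried 1 of 2 scaling targets, 250 or 500, and both occurred within every group. Target 250 was that of replicate 1 in every group and of DNFB replicate 3. Blocks by target and by replicate number are therefore not separate checks. With the target as a block 87 members were lower and 18 higher with DPI. Among the 9 arrays with the target 500 alone 59 were lower and 13 higher, and among the 6 with the target 250 alone 48 and 9, where 1 array stood for each group but DNFB and was assumed to vary like the 2 DNFB arrays. The ratio of beta-actin signal at the 3' end to the 5' end, a measure of RNA quality, was 1.34, 1.19 and 1.33 with DPI and 1.25, 1.25 and 1.25 without treatment. Some of the genes fixed as cell type markers moved too. The dendritic transcription factor gene Spi1 had 5434, 4826 and 4426 without treatment and 2214, 2049.8 and 1608 with DPI, and Ciita, which drives the class II genes, 797, 715 and 793 and then 261, 184 and 186. The summed dendritic list, in which class II genes dominate, was 106799 to 121506 and 100450 to 125641. The mast cell list was 1710 to 1941 without treatment, 1056 to 1715 with DNFB, 791 to 1037 with H2O2, 746 to 971 with DPI and 563.0 to 587 with both compounds. Nearly all of it is Kit, a receptor gene that other cells use as well (log2 -1.20 ± 0.19 with DPI; limma adjusted p = 5.59e-05), while the other mast cell genes, Cpa3 and Fcer1a, were below the signal threshold. In cells with DNFB, DPI gave -0.51 for Spi1 (adjusted p = 0.0236), -0.22 for Ciita (0.381) and -1.47 for Kit (2.99e-06). The part of these shifts in the Zfp result was not tested.

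DPI could be tested a second time, on other arrays, by setting cells with DPI and DNFB against cells with DNFB. Zfp genes again fell: 102 of 256 (39.8%) were lower and 14 higher, against 21.3% and 22.9% of all genes. Among other genes of the same signal deciles 17.4% were lower. The median was -0.39 for the members and 0.10 for all genes, and the arrays did not overlap, with the lower values on the DPI side, for 108 members (42.2%), against 23.9% of all genes. The DPI side was higher without overlap for 17 members (6.64%, against 28.4% of all genes). The beta-actin ratio was 2.07, 1.504 and 2.29 on the arrays with both compounds and 1.32, 1.53 and 1.21 with DNFB, and its part in the result was not tested beyond a fit with the ratio as a covariate, which called 61 lower and 4 higher. With the target as a block the counts were 102 and 16. Target 500 holds a single DNFB array and target 250 a single array with both compounds. The members' median less that of all genes was -0.55 within target 500 and -0.50 within target 250. With the values as deposited 10 were lower and 3 higher, a split of 23.1% higher where the rescaled arrays gave 12.1%.

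Zfp748 was the most reduced. Its signals were 114, 189 and 153 with DNFB and 12.6, 10.4 and 10.5 with both compounds, the latter all below the pseudocount, so the fall of 6.29-fold (log2 -2.65 ± 0.37 (SE; limma adjusted p = 7.92e-06)) depends on that pseudocount. Zfp770 had 1192, 1229 and 1121 with DNFB and 142, 244 and 286 with both, no overlap, and a log2 difference of -2.38 ± 0.19 (SE; limma adjusted p = 8.17e-09). Zfp282 went from 345, 333 and 315 to 34.8, 136 and 30.5 (log2 -2.30 ± 0.34), with the second array with both compounds less reduced than the other pair. The second probe sets of Zfp770 and Zfp282 gave -0.52 and -0.53, the same sign at a smaller size. Zfp113 went from 289, 318 and 291 to 9.05, 87.4 and 49.6 (log2 -2.54 ± 0.43), Zfp52 from 1007, 1228 and 996 to 226, 321 and 171 (log2 -2.14 ± 0.20) and Zfp386 from 986, 1111 and 1039 to 122, 397 and 193 (log2 -2.22 ± 0.28). All 3 had separate groups. With both compounds the means of Zfp748, Zfp282 and Zfp113 lay below the signal threshold, so these members were kept through brighter groups. The neighbours Zfp119a and Zfp119b, close copies whose probes may share transcripts, fell by 4.48-fold and 4.46-fold. Zfp263 was 1674, 2581 and 2202 with DNFB and 422, 470.3 and 702 with both, a fall of 4-fold (log2 -2.00 ± 0.18), and Zfp217 fell by 3.12-fold and Zfp91 by 2.17-fold.

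Of the 14 that rose, Zfp692 had 425, 284 and 253 with DNFB and 1109.6, 607 and 1094 with both compounds, and the ribosome maturation gene Zfp593 had 359, 299 and 360.1 and 939, 719 and 1003. Both were without overlap. Their log2 differences were 1.49 ± 0.24 (SE; limma adjusted p = 3.7e-05) and 1.34 ± 0.17 (SE; limma adjusted p = 3.21e-06). A second probe set of Zfp593 gave -0.10. Zfp444 rose by 2.33-fold, with -0.51 and 0.62 on the log2 scale in its 2 other probe sets, and Zfp622 by 1.73-fold. Zfp462, Zfp939 and Zfp862-ps also passed, but each lost its call without at least 1 array. Without DPI + DNFB replicate 1 Zfp462 had 0.90 (adjusted p = 0.0927), without DNFB replicate 1 Zfp939 had 0.86 (0.0858), and without DPI + DNFB replicate 3 they had 1.10 (0.0502) and 0.96 (0.0648), and Zfp862-ps 0.35 (0.127). Without DNFB replicate 1 or 3 Zfp862-ps had 0.52 (0.0542) and 0.47 (0.0773).

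The DPI effects without and with DNFB share no arrays. The 56 members lower in both are 65.9% of the 85 and 54.9% of the 102, while for all genes 1041 were lower in both, 44.5% of 2341 and 38.5% of 2706. Higher in both were 3 members (1.17%), Zfp296, Zfp622 and Zfp946, against 702 of all genes (5.53%), and 6 (2.34%) were called in opposite directions, against 660 of all genes (5.20%). Across the 256 members the log2 differences correlated with a Pearson r of 0.47 and a Spearman rho of 0.45, and across all genes with r = 0.30. Genes of an array are not independent replicates. Among the 56, by the brightest probe set of each, were Zfp113, Zfp617, Zfp719, Zfp799, Zfp770, Zfp810, Zfp638, Zfp217, Zfp263 and Zfp36l2. For 12 of the 56 the size of the DPI effect differed between cells without and with DNFB, by the interaction test. Of all genes 17.3% passed that test in the positive and 13.8% in the negative direction. The share among all genes lower in both was not counted.

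**Figure D2:**
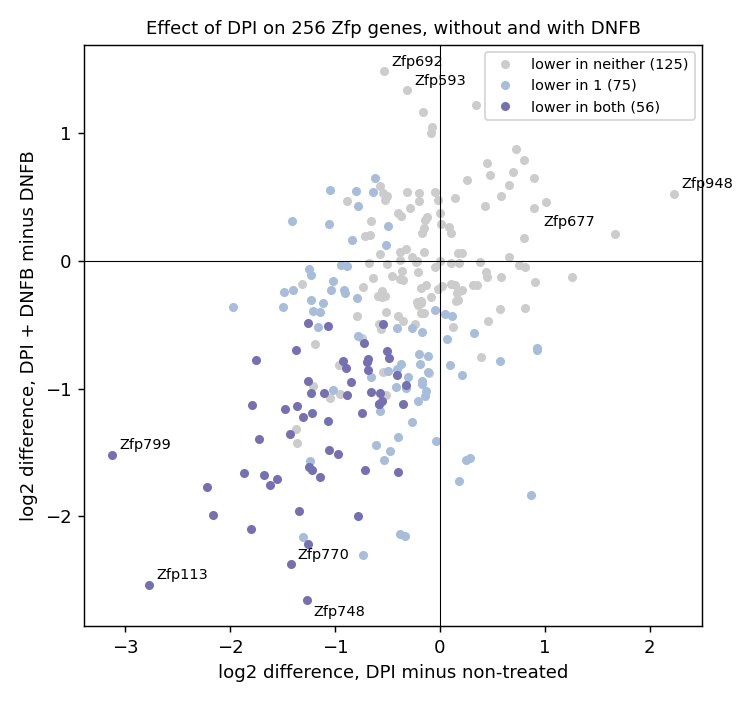
Log2 difference of each of the 256 Zfp genes for DPI minus non-treated (horizontal) and for DPI + DNFB minus DNFB (vertical), 1 point a gene, coloured by whether it was lower in both (56), in 1 (75) or in neither (125). The mass of points lies below 0 on both axes, with Zfp113, Zfp748, Zfp770 and Zfp799 farthest down or left and Zfp948 and Zfp692 on the higher side.

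Set directly against no treatment, cells with DPI and DNFB together had 96 Zfp genes lower (37.5%) and 10 higher, against 18.7% and 15% of all genes and 15.5% lower in other genes of the same deciles. Without overlap 115 were lower and 15 higher, against 23.0% and 21.4% of all genes. This comparison shares its non-treated arrays with that of DPI alone. Zfp113 (-2.68), Zfp748 (-2.68), Zfp799 (-2.28), Zfp324 (-2.20) and Zfp770 (-2.14) had the largest falls in log2. Zfp324 was dim, with 139.8, 174 and 221 without treatment and 106, 8.98 and 9.56 with both, and 1 array of the latter far above the other pair. The means of Zfp113, Zfp748 and Zfp324 with both compounds lay below the signal threshold. The largest rises were 1.48 for Zfp948, 1.24 for Zfp444 and 1.05 for Zfp622, which went from 6327, 6031 and 6058 to 13232, 10811 and 14255. With the beta-actin ratio as a covariate 27 were lower and 3 higher, so that the count moved by more than 1.5 times, and with DPI + DNFB replicate 2, the array of that group with the lowest ratio, as its only array 60 and 3.

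**Figure D3:**
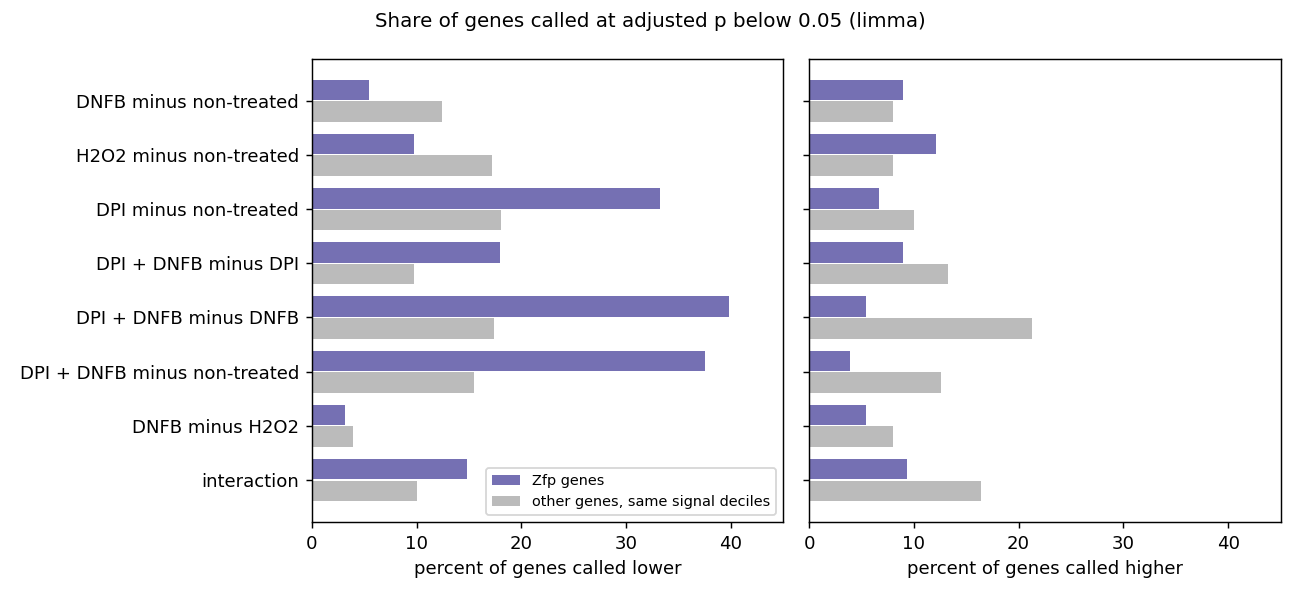
Percent of genes called lower (left) and higher (right) at a limma adjusted p below 0.05 in 8 comparisons, for the 256 Zfp genes and for other genes weighted to the same deciles of mean signal. For the comparisons of cells with DPI against cells without it, the lower share of Zfp genes is 33.2%, 39.8% and 37.5%, and that of other genes 18.0%, 17.4% and 15.5%.

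The share of lower genes was larger for the members in each tertile of signal. With DPI alone 29 of 111 members in the lowest tertile of signal were lower (26.1%), against 6.09% of other genes there, 47 of 112 in the middle tertile (42.0%, against 27.3%) and 9 of 33 in the highest tertile (27.3%, against 20.9%). With DNFB present the shares were 27.9%, 46.4% and 57.6% for the members and 5.75%, 23.5% and 33.3% for other genes.

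**Figure D4:**
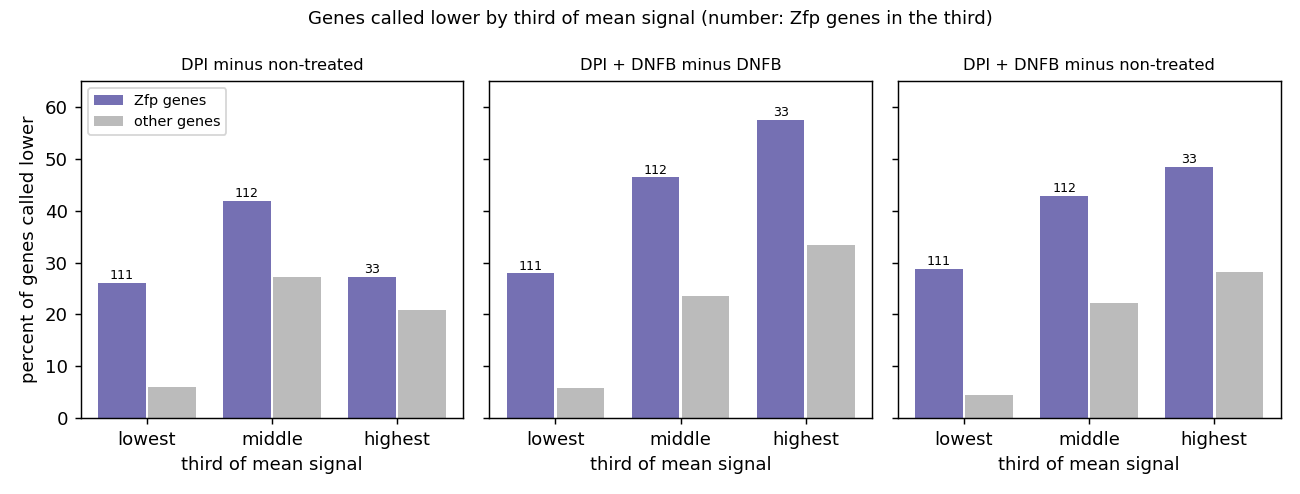
Percent of genes called lower in each tertile of mean signal, for Zfp genes (numbers above the bars: members in the tertile) and other genes, in 3 comparisons of cells with DPI against cells without it. The bar of the Zfp genes is the taller in all 9 pairs, and the gap in the highest tertile of DPI minus non-treated, 27.3% against 20.9%, rests on 33 members.

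A raised share of genes lower with DPI was not particular to the Zfp genes. Of 37 Zbtb genes, which pair C2H2 fingers with a BTB domain, 9 (24.3%) were lower and 3 higher with DPI alone. With DPI in cells with DNFB 18 (48.6%) were lower and 3 higher. Of 17 Zkscan and Zscan genes 5 (29.4%) and 7 (41.2%) were lower and 2 and 2 higher. The Zfp members had 33.2% and 39.8% lower, and all genes 18.4% and 21.3%. The 14 Klf genes, transcription factors with C2H2 fingers, had 0 lower (1 at an unadjusted p below 0.05) and 6 higher with DPI alone (limma; 18.4% and 13.3% of all genes), and 3 lower and 4 higher with DNFB present, a comparison in which 21.3% of all genes were lower and 22.9% higher.

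Zfp genes often lie beside each other on the chromosome. Of 127 members with no Zfp gene beside them 43 (33.9%) were lower with DPI alone, and of 126 in a run of 2 or more adjacent Zfp genes 41 (32.5%) were; 3 were not placed as protein-coding genes. With DNFB present the counts were 52 and 50. The median log2 difference with DPI alone was -0.30 without a neighbour and -0.54 in a run. With DNFB present the medians were -0.28 and -0.50. Members in runs were also dimmer, with a median signal of 244 against 428, so similar shares called do not mean similar falls. Single runs differed. On chromosome 8 a run with Zfp617, Zfp709 and Zfp961 had all 3 lower in both DPI comparisons, with a second probe set of Zfp961 opposite in sign. On chromosome 17 the run of Zfp51, Zfp52, Zfp53, Zfp54, Zfp677, Zfp948 and Zfp983 had 0 lower by limma (1 at an unadjusted p below 0.05) and 2 higher with DPI alone, and 4 of 7 lower with DNFB present. These runs were singled out after their values were seen. Related copies can share probes, and how far cross-hybridisation adds to a run's values was not tested.

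The CCCH genes did not all move alike. Zfp36, which destabilises cytokine messages, had signals of 945, 869 and 509 without treatment, 1643, 1649.7 and 1255 with DNFB and 2042, 3217 and 1903 with H2O2. The 3 groups did not overlap, and H2O2 gave the highest. Zfp36 with DNFB minus Zfp36 with H2O2 was -0.62 in log2 (limma adjusted p = 0.0493). This call ended when any of 12 arrays was left out. The log2 rise was 0.99 ± 0.21 (SE; limma adjusted p = 0.0012) with DNFB and 1.61 ± 0.21 (SE; limma adjusted p = 7.35e-06) with H2O2, or 1.99-fold and 3.06-fold. With DPI alone it was 929.9, 837 and 756, within the range of the non-treated arrays, and with both compounds 1324, 1332 and 1139, above the DPI arrays and overlapping the DNFB arrays. That group was 0.58 above DPI (adjusted p = 0.0414 by limma), a call that ended without DPI replicate 2 or 3 or any array with both compounds (log2 between 0.51 and 0.65). The effect of DNFB on Zfp36 with and without DPI differed by -0.41 ± 0.29, which did not pass (adjusted p = 0.318).

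Zfp36l1, of the same branch, was 4904, 5610.3 and 4338 without treatment, 10278, 9618 and 10014 with DNFB, 13980.1, 12367 and 12402 with H2O2 and 8152, 7111 and 6747 with DPI. These 4 groups were all separate. The log2 difference of DNFB minus H2O2 was -0.37 (limma adjusted p = 0.0318), a call that ended when any of 6 arrays was left out. Against no treatment Zfp36l1 rose by 2.02-fold with DNFB (log2 1.02 ± 0.11 (SE; limma adjusted p = 1.51e-06)), 2.61-fold with H2O2 and 1.48-fold with DPI. With both compounds it was 5639, 6509 and 5271, and its DNFB effect was lower by 2.55-fold when DPI was present (interaction log2 -1.35 ± 0.16 (SE; limma adjusted p = 3.43e-06)). Against DNFB alone, Zfp36l1 was lower with both compounds (log2 -0.78). Zfp36l2, the third of the branch, was 11295, 10299.7 and 8876 without treatment and 6178, 7429.9 and 6938 with H2O2, a log2 difference of -0.56 ± 0.15. DNFB gave -0.28 ± 0.15, which did not pass. Like many other members, Zfp36l2 was lower with DPI alone (-0.85) and with DPI in cells with DNFB (-0.95). Its dimmer probe sets gave -0.70 and 0.31 in the former and -0.25 and 1.21 in the latter.

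Messages that Zfp36 is known to bind were read as a list of 18, of which 16 were measured. With DNFB 10 rose and 3 fell and with H2O2 10 rose and 0 fell by limma, 0 also at an unadjusted p below 0.05 (of all genes 10.5% rose and 13.9% fell with DNFB, and 10.9% rose and 17.4% fell with H2O2). The list holds many inflammatory genes, and its direction is not a measure of Zfp36 activity. The neutrophil chemokine Cxcl2 rose by 3.24 and 3.43 on the log2 scale, the chemokine Ccl3 by 2.46 and 4.62, and the phosphatase Dusp1 by 3.94 and 2.77. Of 22 measured decay partners of Zfp36, 4 rose and 2 fell with DNFB, among them the deadenylase adaptors Btg1 (1.52) and Btg2 (1.28).

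With DNFB alone a smaller share of the Zfp genes than of all genes fell, while the share that rose was similar. Against no treatment 23 of 256 were higher (8.98%) and 14 lower (5.47%) by limma. Of all genes 10.5% were higher and 13.9% lower. Among other genes of the same signal deciles 12.4% were lower, and the share higher was slightly below that of the members. The members' median was 0.04. The corepressor gene Zfp703 rose most, from 324, 486 and 291 to 1202, 1476 and 734 without overlap, 2.97-fold (log2 1.57 ± 0.28 (SE; limma adjusted p = 0.000282)). With DPI and DNFB together it was 223, 432 and 339.9, against 330.4, 485 and 425 with DPI alone, and the difference between these effects was -1.90 ± 0.40 (SE; limma adjusted p = 0.00104). Zfp263 rose by 1.91-fold, the transcription factor gene Zfp384 by 1.63-fold, Zfp513 by 1.87-fold, Zfp597 by 1.79-fold and Zfp655 by 1.74-fold. Zfp948 was 296, 445 and 427 with DNFB, a rise of 1.93-fold that without non-treated replicate 1 was no longer called (log2 0.65, adjusted p = 0.0554).

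The falls with DNFB were led by Zfp141, with 545, 833 and 888 without treatment and 261, 302 and 289 with DNFB, 2.52-fold lower (log2 -1.34 ± 0.23 (SE; limma adjusted p = 0.000179)). Zfp991 went from 2596, 2859.9 and 2843 to 1099.5, 1474 and 1319.9, and Zfp326, a part of the DBIRD complex that couples transcription and splicing, from 1776, 2358 and 2089 to 1188, 1168 and 1198 (log2 -0.79 ± 0.12). In each the groups were apart. The other kept probe sets of Zfp991 moved less, with log2 differences of -0.17 and -0.39. Zfp932 fell by 2.07-fold, and without DNFB replicate 1, its lowest array, the log2 difference was -0.69. Zfp946 fell by 2.03-fold and Zfp90 by 2-fold, the latter not called without DNFB replicate 3 (adjusted p = 0.0602). Zfp512b and Zfp931 were also lower, with calls that ended without single arrays: non-treated replicate 1 (0.0554) and DNFB replicate 3 (0.0767) for Zfp512b, and non-treated replicates 2 (0.127) and 3 (0.140) and DNFB replicates 1 (0.140) and 3 (0.0570) for Zfp931. The number of rises was 15 without DNFB replicate 2 or 3, and the number of falls was 7 without DNFB replicate 3 and 9 without non-treated replicate 2 or 3.

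H2O2 against no treatment called 31 members higher and 25 lower, against 10.9% and 17.4% of all genes. The summed melanocyte markers were 597 to 686 with H2O2 and 931 to 1079 without treatment, and their part in the result was not tested. Beside Zfp36 and Zfp36l1, several members rose. Zfp451, a SUMO ligase, went from 1113, 1225 and 933 to 1988, 2396 and 2123 (log2 0.99 ± 0.13 (SE; limma adjusted p = 1.09e-05)) and Zfp949 from 243, 166 and 158 to 463, 444 and 452 (log2 1.22 ± 0.26), both without overlap. Zfp622 rose from 6327, 6031 and 6058 to 11110.0, 13967 and 11335, 1.96-fold, and Zfp330 by 1.65-fold. Zfp189 had 77.1, 6.64 and 84.1 without treatment, the second array far below the other pair, and 192, 152 and 182 with H2O2. Its non-treated mean lay below the signal threshold. Its rise, log2 1.70 ± 0.52, was 0.99 without non-treated replicate 2 (adjusted p = 0.120) and also lost its call without H2O2 replicate 1 (0.0528) or 3 (0.0521).

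The falls with H2O2 included Zfp362, from 1891, 1727 and 1636 to 853, 740.2 and 724, 2.25-fold lower (log2 -1.17 ± 0.13 (SE; limma adjusted p = 1.62e-06)), Zfp810, from 539.6, 480.2 and 569 to 173, 215 and 265 (log2 -1.24 ± 0.22), and Zfp760, from 344, 385 and 395 to 107, 178 and 151 (log2 -1.30 ± 0.26). In all 3 the highest H2O2 array was below the lowest non-treated array. Zfp141 and Zfp991, low with DNFB, were 2.20-fold and 2.03-fold lower with H2O2, in comparisons that share the non-treated arrays. The other kept probe sets of Zfp991 had log2 differences of only -0.16 and -0.02 with H2O2. Zfp324 passed barely (limma adjusted p = 0.0442), and leaving out any of 10 arrays ended its call, with a log2 difference of -1.66 that was -1.06 without H2O2 replicate 1.

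DNFB and H2O2 were also compared directly. Of the members 14 were higher and 8 lower with DNFB, against 8.75% and 6% of all genes, and with quantile normalization 9 and 9. Zfp362 had 1547, 1448 and 1165 with DNFB and 853, 740.2 and 724 with H2O2 (log2 0.83 ± 0.13 (SE; limma adjusted p = 0.000292)), and Zfp438 had 279, 292 and 350.5 and 149, 142 and 120.3 (log2 1.08 ± 0.26), the DNFB arrays being higher throughout. Zfp810, Zfp287 and Zfp217 were 1.92-fold, 1.89-fold and 1.66-fold higher with DNFB. A second probe set of Zfp287 was opposite in sign, with a log2 difference of -0.27. Zfp703 was 2.14-fold higher, not called without DNFB replicate 2 (adjusted p = 0.0771) or H2O2 replicate 1 (0.0664). Higher with H2O2 were Zfp622, with 6481, 7599 and 7935 under DNFB (-0.72), Zfp330 (-0.54) and Zfp296 (-1.01). There were 7 members higher with DNFB without DNFB replicate 2, 9 without H2O2 replicate 1 and 8 without H2O2 replicate 2, and 4 lower without DNFB replicate 1 or 2 or H2O2 replicate 2 or 3.

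Adding DNFB to cells with DPI gave 23 members higher and 46 lower than DPI alone, against 14.1% and 13.7% of all genes, with 9.78% lower in other genes of the same deciles. The arrays did not overlap for 37 members on the higher and 56 on the lower side, against 21.0% and 17.7% of all genes. The split depended on the scaling: it was 12 and 67 with each array centred on its median and 16 and 53 with quantile normalization. With the beta-actin ratio as a covariate it was 3 and 5, and without DPI + DNFB replicate 3 there were 13 rises. Zfp410 was 2516, 2512 and 2594 with DPI and 1059, 953 and 876 with both, 2.62-fold lower (log2 -1.39 ± 0.15 (SE; limma adjusted p = 3.7e-06)). Zfp664 went from 1337, 1207 and 1306 to 593, 647 and 610.0 (log2 -1.04 ± 0.11), with another probe set at 0.13, Zfp503 from 1069, 681 and 587 to 341, 383 and 184 (log2 -1.34 ± 0.29) and Zfp677 from 599, 676 and 683 to 263, 317 and 248 (log2 -1.20 ± 0.28). The values with both compounds were the lower on every array. Of the rises, Zfp692 (1.29), Zfp593 (1.22), Zfp592 (0.997) and Zfp771 (0.99) were the larger ones that kept their call without any 1 array.

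Whether DPI changed the effect of DNFB was asked by the interaction, that is, the DNFB effect in cells with DPI less the DNFB effect in cells without it. It was positive for 24 members and negative for 38 (limma), against 17.3% and 13.8% of all genes. With each array centred on its median the split was 9 and 58 and with quantile normalization 17 and 48. The DNFB effect without DPI and with it share no arrays, and over them 1 member was lower in both, 3 were higher in both and 10 (3.91%) were called in opposite directions, of 23 higher and 14 lower in the first and 23 higher and 46 lower in the second. Of all genes 199 were lower in both, 200 higher in both and 838 (6.60%) opposite. Zfp664 had 1052, 1112 and 979.6 without treatment, 1747, 1861 and 1857 with DNFB, 1337, 1207 and 1306 with DPI and 593, 647 and 610.0 with both. In this probe set DNFB raised it where DPI was absent and lowered it where DPI was present (interaction log2 -1.83 ± 0.15 (SE; limma adjusted p = 5.3e-08)). Its other probe set did not show this: it had 0.24 with DNFB alone, 0.13 with DNFB added to DPI and an interaction of -0.11. Zfp597 (-1.81), Zfp655 (-1.26) and Zfp703 (-1.90) also rose with DNFB alone and had negative interactions. Zfp692 went the other way: DNFB lowered it from 579, 480.1 and 535 to 425, 284 and 253, and with DPI raised it from 359, 426 and 307 to 1109.6, 607 and 1094 (interaction log2 2.02 ± 0.33 (SE; limma adjusted p = 0.000117)).

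**Figure D5:**
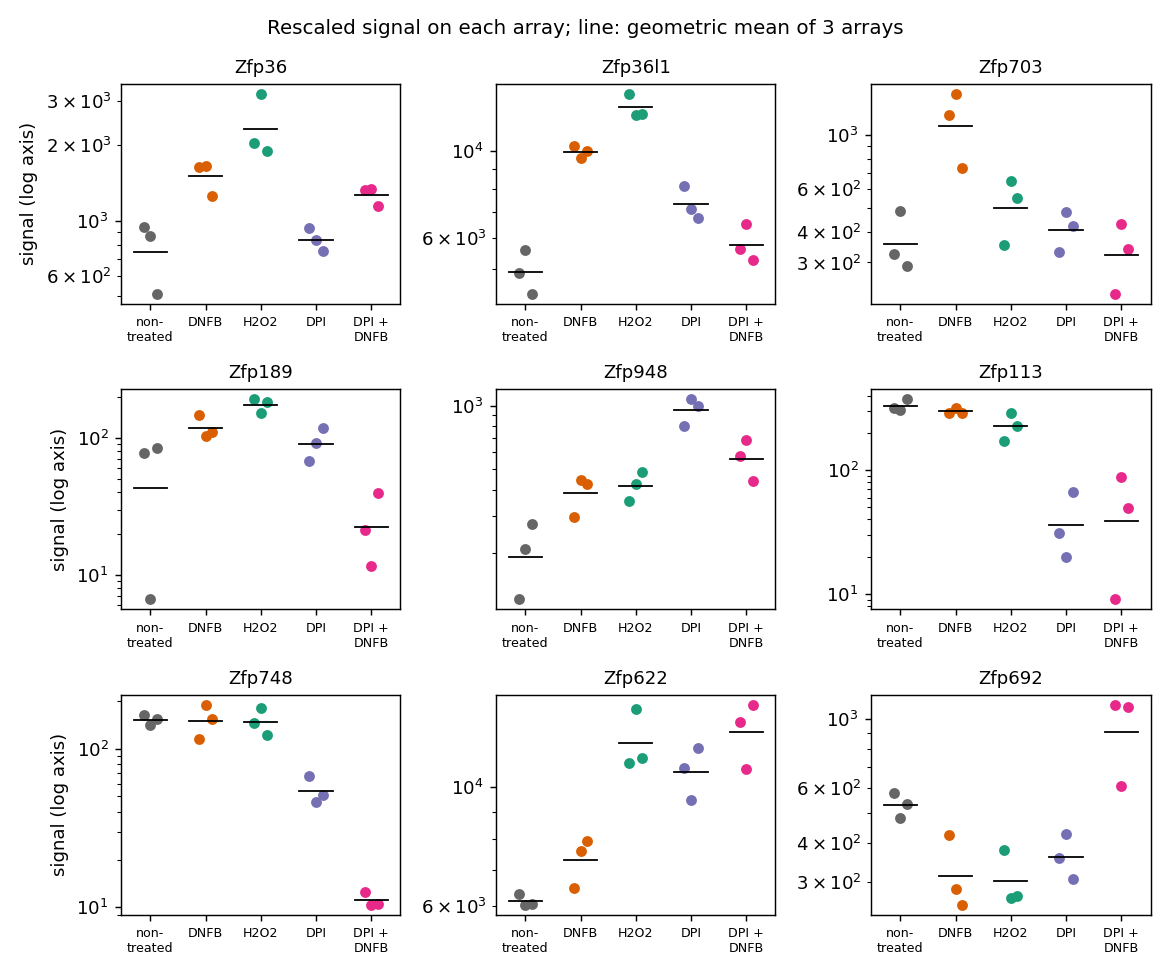
Rescaled signal of 9 Zfp genes on each of 15 arrays, by group, on log axes that do not start at 0, with a line for the geometric mean of 3 arrays. Zfp36 and Zfp36l1 are highest with H2O2, Zfp703 with DNFB and Zfp948 with DPI, Zfp113 and Zfp748 are low in the groups with DPI, and Zfp692 is highest with both compounds.

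The corepressors that KRAB zinc finger proteins recruit were measured through a list of 25 genes, 24 of them above the threshold. With DPI alone 6 were lower and 3 higher, and with DPI in cells with DNFB 6 lower and 8 higher (of all genes 18.4% and 13.3%, then 21.3% and 22.9%). Lower in both were Setdb1 (log2 -0.52 and -0.55), the remodeller gene Smarcad1 (-1.19 and -1.29), the HUSH subunit gene Tasor (-0.93 and -1.29) and Morc2a (-0.75 and -0.90), which works with HUSH. Trim28, the factor that binds the KRAB box, had -0.06 with DPI alone, which did not pass, and rose by 0.82 with DPI in cells with DNFB, after -0.51 with DNFB alone. The methyltransferase gene Dnmt1 and its partner Uhrf1 fell with DNFB (-1.32 and -1.34), and both are also genes of dividing cells.

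Of the members to be named whatever their values, Zfp57, Zfp143 and Zfp423 were not among the genes tested. Zfp148, Zfp335, Zfp346, Zfp521, Zfp668 and Zfp687 passed in none of the 8 comparisons. Zfp281 was lower in 1, cells with both compounds against DPI (-0.59), and Zfp318, known for the splicing of IgD, was higher with DNFB than with H2O2 (0.50), which did not pass without DNFB replicate 1 or 2 or H2O2 replicate 2 (adjusted p between 0.0945 and 0.128). The kinetochore and splicing protein gene Zfp207 was lower with both compounds than with DPI (-0.87), while its 5 other probe sets ranged from -1.21 to 0.21. Over all 256 members, 180 (70.3%) passed in at least 1 pairwise comparison, against 69.0% of all genes, and 76 in no comparison. Of the 85 members lower with DPI alone and the 17 higher, 38 had a further kept probe set, 56 in all, of which 41 had the sign of the probe set used and 15 the opposite.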

How the data were processed

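The authors deposited intensity values (linear signals of the probe sets of 15 Affymetrix arrays) for which the submitters' processing notes name MAS5 and Affymetrix Expression Console, without versions. Per the labels' protocols, TRIzol and an RNeasy kit were used for extraction and a 3' IVT kit for copying the RNA, so each probe set reads mostly the 3' end of its transcript. The deposited arrays had a 2% trimmed mean of 250 (6 arrays) or 500 (9 arrays). Every array was rescaled to 500 and transformed to log2 after adding 15, so that folds of dim genes are drawn toward 1. Control probe sets were left out, and probe sets were kept from the 40th percentile of mean log2 signal. Probe sets were named through the platform annotation, those with 1 gene only, and the probe set of highest mean stood for its gene.

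Group means were fitted to all 15 arrays and 12701 genes in R 4.3.3 by limma 3.58.1 (functions lmFit, contrasts.fit and eBayes, trend on; 10 residual degrees of freedom). P-values were adjusted by Benjamini-Hochberg over all genes within each of 8 comparisons, with a threshold of 0.05. Group differences are given in log2 with the SE of the fit. Precision is limited by how many arrays there are: the members' median SE was 0.25 in the pairwise comparisons and 0.35 in the interaction. The steps were tested on simulated data. The members, the lists and the alternatives were chosen with earlier results of these data known, so no list is tested. Each comparison's named genes were the 8 largest rises and 8 largest falls among passing members without overlap of the groups compared (for the interaction, among passing members), with fixed genes of known function whatever their values, those at the signal threshold, and partner genes that passed. Genes outside this rule that are named were chosen after their values were seen.

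Promoter windows came from RefSeq's table for GRCm38.p6. Adjacent Zfp genes were read from the order of genes in RefSeq's table, and no coordinates of array probes were used. Zfp subclasses by protein sequence were not analysed here. Marker lists besides the dendritic and keratinocyte ones had summed signals of 2178 to 3585 (macrophage), 219.2 to 633.6 (fibroblast), 169.4 to 644.7 (T cell), 71.9 to 367.5 (B cell), 563.0 to 1941 (mast cell, which differed between groups) and 596.7 to 1369 (melanocyte). Replicate numbers of the labels are not said to mark a shared culture or day. The deviations of same-numbered arrays correlated with r between -0.003 and 0.14 over 30 pairs (median 0.074). Those of differently numbered arrays had r between -0.14 and 0.05 over 60 pairs (median -0.033). The same-numbered arrays were thus somewhat more alike. Because the labels give no pairing, the main fit used none, and a fit with the replicate number as a block is given among the alternatives.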

Additional observations from a re-analysis of the deposited data

Results flagged for a closer look

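The effect of DNFB on the Zfp genes was compared between cells without and with DPI by the interaction in limma, the effect with DPI minus the effect without it. It passed for 24 members in the positive and 38 in the negative direction, where 17.3% and 13.8% of all genes passed.

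Positive interactions, in log2, were 2.02 for Zfp692, 1.72 for Zfp90, 1.65 for Zfp593, 1.61 for Zfp975, 1.60 for Zfp799, 1.60 for Zfp141, 1.35 for Zfp862-ps and 1.35 for Zfp1. Zfp141 and Zfp90 fell with DNFB alone, and DNFB added to DPI gave differences of 0.27 and 0.72 that did not pass. That of Zfp975 (limma adjusted p = 0.0276) was not called without non-treated replicate 1 or 2, DNFB replicate 2 or 3 or DPI replicate 1, with adjusted p between 0.0517 and 0.0736.

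Negative interactions were -2.70 for Zfp189, -1.90 for Zfp703, -1.83 for Zfp664, -1.83 for Zfp119b, -1.81 for Zfp597, -1.76 for Zfp52, -1.70 for Zfp948 and -1.62 for Zfp410. Zfp52 had a difference of 0.38 with DNFB alone, which did not pass, and fell by 1.38 on the log2 scale when DNFB was added to DPI. The other probe set of Zfp664 gave -0.11. The value of Zfp189 includes 1 non-treated array with a signal of 6.64, where the other pair had 77.1 and 84.1. That of Zfp119b (limma adjusted p = 0.0266) was not called when any of 6 single arrays was left out, with adjusted p between 0.0538 and 0.0764. The beta-actin 3'/5' ratio was 1.504 to 2.29 in cells with both compounds and 1.19 to 1.53 on the other 12 arrays. With that ratio as a covariate 14 of these 16 interactions still passed, and those of Zfp975 (1.80, limma adjusted p = 0.0731) and Zfp119b (-1.17, limma adjusted p = 0.302) did not.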

How the results depend on the processing

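Of 497 pairs of a count or median and an alternative other than leaving out an array, 414 stayed within 1.5 times the reported count (or the spread of a median) and 83 did not. The 414 include pairs that could not move. Choosing members by current symbol gave the same set and the same fit. Another threshold, no trend, only the groups compared or the replicate block left every median as it was. The medians less that of all genes kept their sign in 7 of 8 comparisons; that with H2O2, -0.02, was above 0 under 7 of 20 such alternatives and without 4 single arrays, between -0.06 and 0.12. For the single genes named, 186 pairs of gene and comparison were called, and 140 of them kept their call and size without any 1 array.

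With the values as deposited, whose 2 scaling targets add to the spread within groups, limma called 8 lower and 1 higher with DPI, 10 and 3 with DPI in cells with DNFB, 14 and 0 with both compounds against none, and 2 lower in both DPI comparisons. It called 0 and 0 with DNFB (15 lower and 1 higher at an unadjusted p below 0.05), 0 and 0 with H2O2 (7 and 7), 0 and 0 for both compounds against DPI (12 and 3), 0 and 0 for DNFB against H2O2 (5 and 0) and 0 and 0 in the interaction (5 negative and 13 positive). The medians less that of all genes were -0.40 and -0.50 for the DPI comparisons. The causes of the other changes were not tested.

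Among the arrays of target 500 there were 10 higher and 3 lower with DNFB, 17 higher with H2O2, 12 and 29 for both compounds against DPI, 6 higher against DNFB and 6 against none, 2 and 1 for DNFB against H2O2, 9 and 24 in the interaction, and 34 lower in both DPI comparisons. Among those of target 250 there were 15 and 7 with DNFB, 13 and 9 with H2O2 (median 0.068), 9 and 48 with DPI, 19 lower for both compounds against DPI, 5 and 61 against none (median -0.34), 6 and 3 for DNFB against H2O2, 13 and 21 in the interaction, and 31 lower in both. With each array centred on its median, which moved the median of all genes from 0.08 to -0.17 for both compounds against DPI, from 0.10 to -0.17 against DNFB, from 0.02 to -0.23 against none and from 0.14 to -0.14 in the interaction, there were 12 higher for both compounds against DPI, 4 against DNFB and 5 against none, 4 lower for DNFB against H2O2, and 9 and 58 in the interaction. Quantile normalization gave 9 higher for DNFB against H2O2, the filter at the 60th percentile a median of 0.12 with H2O2, and the mean of a gene's probe sets 5 higher for both compounds against none.

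With the beta-actin ratio as a covariate there were 3 higher and 5 lower for both compounds against DPI, 4 and 61 against DNFB, 3 and 27 against none, and 15 positive in the interaction. With the group of both compounds reduced to its replicate 2, an alternative chosen after seeing the data, in which it was assumed to vary like the other groups, these were 11 and 10 against DPI, 6 higher against DNFB and 3 and 60 against none, with 13 lower for DNFB against H2O2. Fits to only the groups compared gave 14 and 26 for both compounds against DPI and 14 lower for DNFB against H2O2. At an adjusted p of 0.01 there were 12 and 5 with DNFB, 16 and 14 with H2O2, 11 and 26 for both compounds against DPI, 7 higher against DNFB and 6 against none, 6 and 3 for DNFB against H2O2, 12 positive in the interaction, and 36 lower in both DPI comparisons. The replicate block gave 15 lower for DNFB against H2O2 and moved no other count by over 1.5 times; all 15 arrays correlated best, among arrays of other groups, with one of their own number, which is a hint from the data and not from the design.

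Leaving out each array in turn gave 15 to 25 higher and 7 to 17 lower with DNFB, 22 to 33 and 18 to 27 with H2O2, 13 to 17 and 65 to 93 with DPI, 13 to 25 and 31 to 46 for both compounds against DPI, 10 to 16 and 92 to 104 against DNFB, 7 to 12 and 81 to 99 against none, 7 to 16 and 4 to 10 for DNFB against H2O2, 18 to 29 and 32 to 44 in the interaction (median -0.28 to -0.11), and 41 to 58 lower in both.

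Single values turned for Zfp410 with H2O2 among arrays of target 250 (-0.10) and, with the mean of a gene's probe sets, for Zfp91 with H2O2 (0.34) and DPI (0.086) and Zfp36l2 with DPI in cells with DNFB (0.00478). Zfp subclasses by protein pattern were not run. A signal near the pseudocount gives only a compressed fold.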

Other observations

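The promoter windows of the members that rose with H2O2 were described as well. The table gave 34 windows for 26 of the 31 genes. GGGCGG was in 61.8% of them, against 44.8% of all members' windows, CCGGAAG in 26.5% against 17.2%, the NRF1 motif in 17.6% against 8.05%, and TGACNNNGC in 14.7% against 12.6%. The CArG box was in 5.88%, against 1.15%. These shares are over few windows, some of them of 1 gene, and carry no test.

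Decay partners of Zfp36 moved with DPI in both directions. Of 22 measured, 5 rose and 4 fell with DPI alone (of all genes, 13.3% and 18.4%). Cnot4, a ubiquitin ligase associated with the CCR4-NOT deadenylase, rose by 1.32 on the log2 scale, and the deadenylase subunit Cnot3 fell by 0.75. The kinase gene Mapkapk2, whose product phosphorylates Zfp36, rose by 0.41 with DNFB, 0.58 with H2O2 and 0.49 with DPI, in comparisons that share the non-treated arrays.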
